A study of Mus musculus with 12 samples.

Results

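The 10 genes described here belong to the BCL2 family, the proteins that set whether a mitochondrion releases the factors that start apoptosis. They were taken by symbol from a deposited table of 55421 mouse genes: 4 anti-apoptotic members (Bcl2, Bcl2l1, Bcl2l2 and Mcl1) and 6 pro-apoptotic members (Bcl2l11, Bmf, Bid, Bak1, Bax and Bok). All 10 were found, and all 10 were among the 18108 genes that passed a filter on low counts. RNA came from MOC2 cells, a mouse oral squamous carcinoma line grown in culture. The derivative MOC2-25 was labelled EV-proficient and the derivative MOC2-27 EV-deficient, EV standing for the extracellular vesicles that cells shed; the labels do not name the gene blocked in MOC2-27. Each derivative was given DMSO, the solvent control, or 600 nM paclitaxel for 48 h, a drug that stabilises microtubules and was used to make the cells senescent. The 4 groups held 3 libraries each, 12 in all. Every group was grown in the same medium with serum, insulin, EGF, hydrocortisone, cholera toxin, transferrin and tri-iodothyronine. With 1 derivative to each label, an effect of the label and a difference between the lines cannot be told apart. The labels do not say whether libraries of a group came from separate cultures, so the p-values measure only the spread between these libraries, which may be technical.

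Apoptosis through the mitochondrion begins when effector proteins of the family, BAX and BAK (from Bak1), open pores in the outer mitochondrial membrane and cytochrome c escapes. The anti-apoptotic members, the guardians, hold the effectors in check, and the BH3-only members, such as BIM (from Bcl2l11), BMF and BID, occupy the guardians or activate the effectors. Senescent cells are known for relying on guardians to survive, and senolytic drugs of the navitoclax type kill them by binding BCL-2, BCL-XL (from Bcl2l1) and BCL-W (from Bcl2l2), while MCL-1 is bound by other inhibitors. The values below are transcripts and not proteins, and counts per gene do not separate isoforms such as the long and short forms of BCL-X.

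Library totals ran from 23263472 to 62955757 counts. By these totals alone, 3 counts, the smallest number read as signal, corresponded to 0.0477 to 0.129 CPM (counts scaled to the same library size). The CPM levels of genes given here also include a scaling factor for each library, from 0.890 to 1.15. On that scale these limits are therefore approximate. No pair of replicates agreed within sampling noise. Of 8 genes listed for the squamous label, Krt8, Krt18, Cdh1 and Epcam had group means of 407 CPM or more, while Krt5 and Trp63 had group means of at most 0.101 and 0.142 CPM. The other two differed widely by group: under DMSO and paclitaxel, Krt14 averaged 191 and 191 CPM with the EV-proficient label and 681 and 80.0 CPM with the EV-deficient label, and Krt6a 42.0 and 15.5 CPM, then 318 and 2.48 CPM. The summed level of the 8 genes, of which Krt8 and Krt18 made up the most, was 4917 to 5823 CPM under DMSO and 3023 to 3716 CPM under paclitaxel. Epcam averaged 816 CPM with the drug against 407 CPM without it for the EV-proficient label, where the libraries did not overlap. For the EV-deficient label the treatments overlapped, at 423 to 616 CPM with the drug and 434 to 443 CPM without it. Sums for 5 leukocyte markers moved the other way, from 7.50 to 21.4 CPM under DMSO to 26.5 to 47.1 CPM under paclitaxel, and the T-cell gene Cd3e was at or below 3 counts in every library. Cd68 was higher with the drug for both labels (30.1 against 6.47 CPM, then 30.0 against 7.92 CPM), whereas Csf1r was higher for EV-proficient (11.6 against 0.944 CPM) and lower for EV-deficient (5.34 against 12.4 CPM). Sums for 5 fibroblast markers were 1.56 to 3.16 CPM and 5.26 to 8.04 CPM, and sums for 4 endothelial markers 1.77 to 2.61 CPM and 2.75 to 4.35 CPM, under DMSO and paclitaxel. Whether these shifts have a part in the values below was not tested, and in bulk RNA fewer cells of a type and less RNA per cell cannot be told apart.

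The libraries carried a further sign that bears on the EV labels. The authors had added a row for a dngfr sequence to the table, and the labels do not say which derivative carries it. Under DMSO its mean was 8.99 ± 3.23 CPM with the EV-proficient label and 2.15 ± 0.349 CPM with the EV-deficient label, but under paclitaxel 3.24 ± 0.683 and 10.9 ± 1.42 CPM (SD, n = 3 each), so the order of the labels turned between the treatments. Every group below is named as labelled. Differences between EV labels are therefore given for 1 treatment at a time, and the effect of paclitaxel is given within each label and as the average over both labels. That average would be unchanged if the 2 paclitaxel groups were exchanged whole, but not if single libraries were. An exchange of the labels between the 2 paclitaxel groups cannot be told apart here from a response that differs between the derivatives. It would change every fold change within a derivative, every difference between labels under paclitaxel and every interaction value below.

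The BH3-only genes Bcl2l11 and Bmf showed the largest responses to the drug among the members, so the DNA upstream of their starts is shown first. The windows are the 250 bases before the most upstream RefSeq start of each gene (GRCm38.p6): chr2:128125788-128126037 on the plus strand for Bcl2l11 and chr2:118549687-118549936 on the minus strand for Bmf. Both strands were searched for 3 motifs: GTAAACA, a core that FOXO factors bind; TGANTCA, the AP-1 site; and GGGCGG, the GC box bound by SP factors. Matches are in capitals.
Bcl2l11: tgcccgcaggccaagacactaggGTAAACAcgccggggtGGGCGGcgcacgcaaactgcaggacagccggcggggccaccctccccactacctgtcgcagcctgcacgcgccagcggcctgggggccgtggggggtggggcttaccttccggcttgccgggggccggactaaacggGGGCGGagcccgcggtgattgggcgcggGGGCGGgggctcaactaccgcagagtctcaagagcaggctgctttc
Bmf: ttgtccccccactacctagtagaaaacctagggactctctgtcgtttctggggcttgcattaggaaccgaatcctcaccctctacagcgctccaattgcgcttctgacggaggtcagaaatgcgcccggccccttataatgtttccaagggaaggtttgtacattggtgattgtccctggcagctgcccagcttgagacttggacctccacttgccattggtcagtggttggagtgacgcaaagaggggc
The Bcl2l11 window, 72.0% G or C against a median of 52.4% over 32851 such windows, held 1 FOXO core that begins 227 bases before the start and 3 GC boxes that begin 211, 74 and 46 bases before it. The Bmf window, 54.0% G or C, held no match to these letters. Across all windows the FOXO core was found in 3.17%, the AP-1 site in 6.75% and the GC box in 32.7%. Over the 15 RefSeq starts of the 10 members, 1 window held a FOXO core, 0 an AP-1 site and 8 a GC box. The window of Bcl2, at 74.8% G or C, held 7 GC boxes, and those of Bcl2l1, at 3 starts, held no match to any of the 3. A match is a description of the letters and not evidence of binding.

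Among the guardians, paclitaxel raised Bcl2 in both derivatives and Bcl2l2 in the EV-proficient one, while Bcl2l1 and Mcl1, the most abundant pair, did not pass the test in either. Fold changes are log2 values with standard errors, called where the edgeR adjusted p was under 0.05. Bcl2 (ENSMUSG00000057329, chr1:106538178-106714274, minus strand, GRCm38) encodes the guardian for which the family is named. Its levels in replicates 1 to 3 were 10.1, 9.26 and 10.3 CPM in EV-proficient DMSO and 23.1, 21.3 and 21.3 CPM in EV-proficient paclitaxel libraries. In EV-deficient libraries they were 12.7, 13.4 and 12.8 CPM under DMSO and 18.4, 19.2 and 16.0 CPM under paclitaxel. The 4 groups did not overlap, and both paclitaxel groups lay above both DMSO groups. Bcl2 rose 2.22-fold in EV-proficient cells (log2 1.15 ± 0.10, edgeR adjusted p = 1.8e-09) and 1.38-fold in EV-deficient cells (0.46 ± 0.09, edgeR adjusted p = 2.0e-04).

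Bcl2l2 (ENSMUSG00000089682, chr14:54883377-54888234, plus strand) encodes BCL-W. It stood at 31.5, 31.5 and 31.4 CPM in EV-proficient DMSO and at 46.5, 51.5 and 43.3 CPM in EV-proficient paclitaxel libraries. In EV-deficient libraries it was at 31.0, 34.9 and 33.4 CPM under DMSO and 34.7, 35.0 and 35.2 CPM under paclitaxel. EV-proficient paclitaxel libraries alone stood apart, above the other 9. The rise was 1.50-fold in EV-proficient cells (0.59 ± 0.07, edgeR adjusted p = 7.7e-07), and in EV-deficient cells the difference was 0.08 ± 0.07 (edgeR adjusted p = 0.37). Exons of Bcl2l2 share 13.3% of their length with Gm20521, a coding gene on the same strand, so counts could be split between the 2 genes.

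Bcl2l1 (ENSMUSG00000007659, chr2:152780668-152831728, minus strand) had 184, 203 and 186 CPM in EV-proficient DMSO and 179.9, 213 and 184 CPM in EV-proficient paclitaxel libraries. In EV-deficient libraries its levels were 175, 162 and 162 CPM under DMSO and 169, 181 and 158 CPM under paclitaxel. Within each derivative the treatments overlapped, and the averaged paclitaxel effect was 0.02 ± 0.05, with a 95% interval from -0.09 to 0.12 (edgeR adjusted p = 0.78). Mcl1 (ENSMUSG00000038612, chr3:95658788-95663176, plus strand) encodes MCL-1, a short-lived guardian. Its 12 values lay between 133 and 156 CPM. The averaged effect was 0.05 ± 0.04, with an interval from -0.03 to 0.14 (edgeR adjusted p = 0.27). In EV-deficient cells alone Mcl1 went from 134, 138 and 133 CPM to 152, 156 and 138 CPM, a difference of 0.14 ± 0.06 that did not pass the test (edgeR adjusted p = 0.054). It passed under 8 of the alternatives, among them when EV-deficient paclitaxel replicate 3 was left out (0.18).

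**Figure D1:**
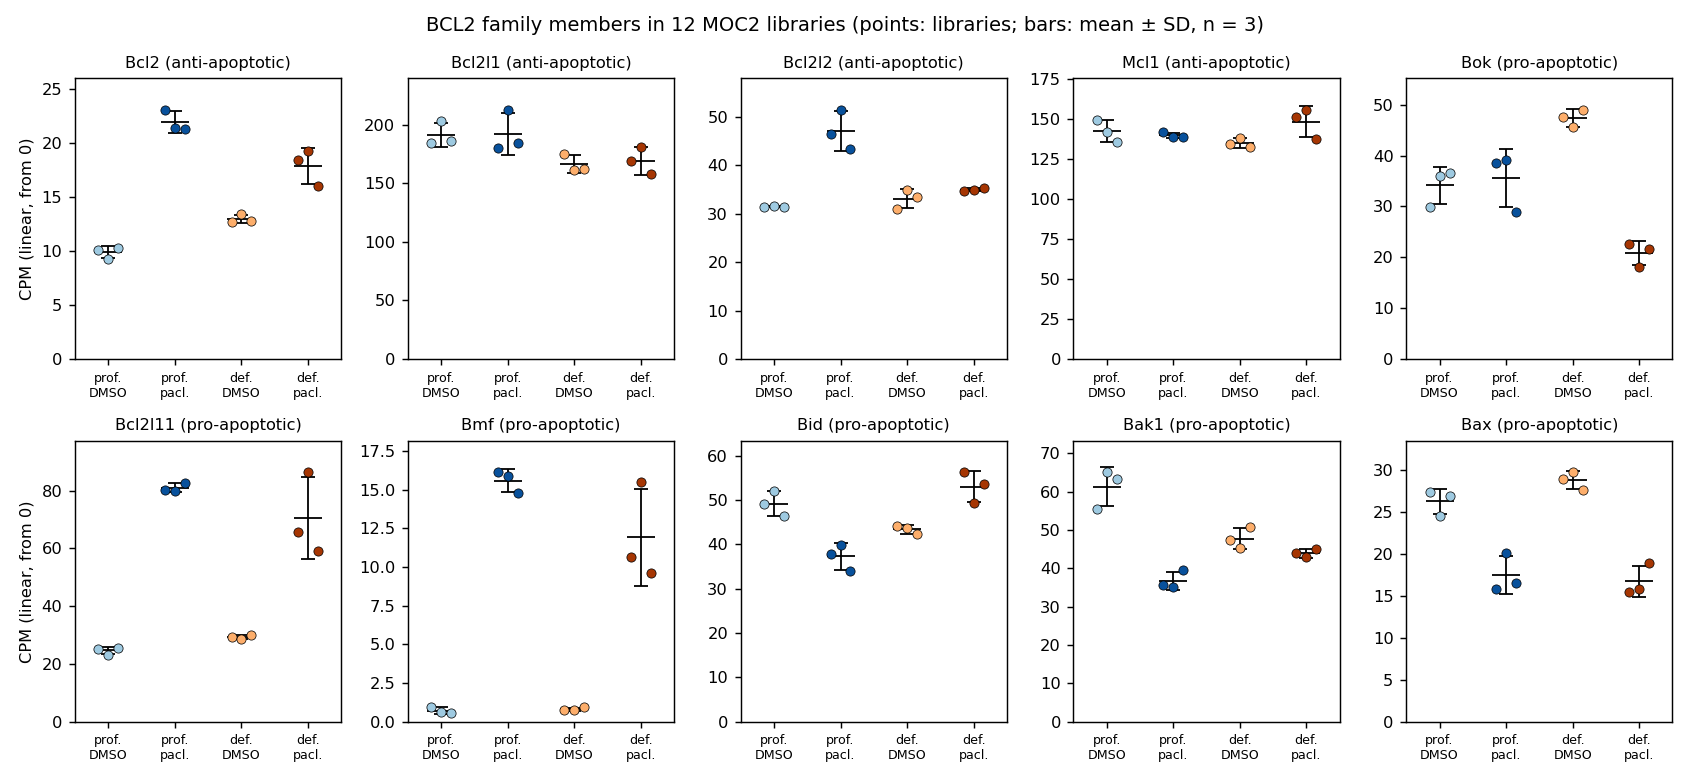
Level of each member in every library, in CPM on a linear axis from 0, by group; points are libraries and bars the mean ± SD (n = 3). Bmf lies below 1 CPM in all 6 DMSO libraries and at 9.65 CPM or more in all 6 paclitaxel libraries, while the 12 values of Mcl1 lie between 133 and 156 CPM.

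Of the BH3-only members, Bcl2l11 and Bmf rose in both derivatives, and Bid fell in EV-proficient and rose in EV-deficient cells. Bcl2l11 (ENSMUSG00000027381, chr2:128126038-128162547, plus strand) encodes BIM, which binds every guardian and can be held on microtubule motors by dynein light chain. It measured 25.1, 23.2 and 25.6 CPM in EV-proficient DMSO libraries and 80.3, 80.0 and 82.7 CPM in EV-proficient paclitaxel libraries. In EV-deficient libraries it measured 29.3, 28.8 and 29.9 CPM under DMSO and 65.7, 86.3 and 59.1 CPM under paclitaxel. All 6 paclitaxel values lay above all 6 DMSO values, and the EV-deficient paclitaxel libraries spread more widely than the other groups. Bcl2l11 rose 3.29-fold in EV-proficient (1.72 ± 0.10, edgeR adjusted p = 7.1e-12) and 2.40-fold in EV-deficient cells (1.26 ± 0.10, edgeR adjusted p = 3.0e-10).

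Bmf (ENSMUSG00000040093, chr2:118528757-118549687, minus strand) encodes a BH3-only protein that can be held on the actin cytoskeleton. Under DMSO it was nearly silent, with 0.950, 0.622 and 0.556 CPM for the EV-proficient and 0.767, 0.730 and 0.921 CPM for the EV-deficient label. These levels rest on 19 to 43 counts a library, above the limit of 3. Under paclitaxel it reached 16.1, 15.9 and 14.8 CPM for the EV-proficient and 10.6, 15.5 and 9.65 CPM for the EV-deficient label, from 365 to 903 counts. The drug separated the libraries without overlap, whereas the EV labels overlapped under paclitaxel. The rise was 21.7-fold in EV-proficient (4.44 ± 0.21, edgeR adjusted p = 3.9e-13) and 14.8-fold in EV-deficient cells (3.88 ± 0.20, edgeR adjusted p = 6.2e-13), the largest of any member in either derivative.

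Bid (ENSMUSG00000004446, chr6:120891930-120916853, minus strand) encodes the protein that caspase-8 cleaves to carry a death receptor signal to mitochondria. Its levels were 49.2, 52.1 and 46.4 CPM in EV-proficient DMSO and 37.9, 39.9 and 34.1 CPM in EV-proficient paclitaxel libraries. In EV-deficient libraries they were 44.3, 43.7 and 42.3 CPM under DMSO and 56.3, 49.3 and 53.5 CPM under paclitaxel. Thus the drug groups did not overlap within either derivative but lay in opposite order. Bid fell by 0.40 ± 0.08 in EV-proficient (edgeR adjusted p = 1.1e-04) and rose by 0.29 ± 0.07 in EV-deficient cells (edgeR adjusted p = 0.0017). Its exons share 17.7% of their length with Bcl2l13 on the opposite strand, and whether counting used strand is not given in the sources used here.

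The effectors went down or did not pass the test. Bax fell in both derivatives, Bak1 fell in EV-proficient and Bok in EV-deficient cells. Bax (ENSMUSG00000003873, chr7:45461697-45466898, minus strand) gave 27.3, 24.5 and 26.8 CPM in EV-proficient DMSO and 15.8, 20.0 and 16.5 CPM in EV-proficient paclitaxel libraries. It gave 28.9, 29.7 and 27.6 CPM in EV-deficient DMSO and 15.5, 15.7 and 18.8 CPM in EV-deficient paclitaxel libraries. Every paclitaxel library was below every DMSO library. Bax was 1.50-fold lower in EV-proficient (-0.58 ± 0.10, edgeR adjusted p = 3.7e-05) and 1.72-fold lower in EV-deficient cells (-0.78 ± 0.10, edgeR adjusted p = 5.0e-07); 12.2% of its exon length is shared with Gm45808 on the same strand.

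Bak1 (ENSMUSG00000057789, chr17:27019810-27029009, minus strand) encodes BAK, the effector that sits on mitochondria already in healthy cells. It was at 55.5, 65.1 and 63.2 CPM in EV-proficient DMSO and at 35.8, 35.2 and 39.5 CPM in EV-proficient paclitaxel libraries. In EV-deficient libraries it was at 47.3, 45.2 and 50.8 CPM under DMSO and 43.9, 42.8 and 45.1 CPM under paclitaxel. No 2 of these groups overlapped, although the EV-deficient ones came close. Bak1 was 1.67-fold lower with the drug in EV-proficient cells (-0.74 ± 0.08, edgeR adjusted p = 3.0e-08), and in EV-deficient cells the difference of -0.12 ± 0.07 did not pass (edgeR adjusted p = 0.17). Its exons overlap Ggnbp1 on the opposite strand over 18.2% of their length.

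Bok (ENSMUSG00000026278, chr1:93685660-93695764, plus strand) encodes an effector whose activity does not depend on BAX and BAK. It measured 29.9, 35.9 and 36.6 CPM in EV-proficient DMSO and 38.6, 39.2 and 29.0 CPM in EV-proficient paclitaxel libraries, which overlapped. In EV-deficient cells it stood at 47.7, 45.6 and 49.1 CPM under DMSO and at 22.6, 18.2 and 21.6 CPM under paclitaxel. EV-deficient DMSO libraries were thus the highest of all 12 and EV-deficient paclitaxel libraries the lowest. The difference was 0.07 ± 0.11 in EV-proficient cells (edgeR adjusted p = 0.60), and in EV-deficient cells Bok was 2.28-fold lower with the drug (-1.19 ± 0.11, edgeR adjusted p = 2.8e-09).

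Counted over the members, paclitaxel changed 7 of 10 in EV-proficient cells, 4 higher (Bcl2, Bcl2l2, Bcl2l11, Bmf) and 3 lower (Bid, Bak1, Bax), where 58.2% of all genes tested were called, 31.1% higher and 27.1% lower. In EV-deficient cells it changed 6 of 10, 4 higher (Bcl2, Bcl2l11, Bmf, Bid) and 2 lower (Bax, Bok), against 62.9% of all genes, 32.4% higher and 30.5% lower. Both shares are near the background: the drug moved most of the transcriptome, and the number of members called is not particular to the family. The median log2 change of the members was 0.04 and 0.11 in the 2 derivatives, beside 0.05 and 0.07 over all genes. In each derivative 7 members did not overlap between treatments, beside 62.3% of all genes in EV-proficient and 68.7% in EV-deficient cells. Bcl2, Bcl2l11, Bmf, Bid, Bak1 and Bax were among the 7 in both, joined by Bcl2l2 in EV-proficient and by Bok in EV-deficient cells. The 2 comparisons use different DMSO libraries.

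Averaged over both labels, 7 of 10 members passed, against 68.4% of all genes, 37.1% higher and 31.3% lower. Of the 4 guardians, 2 were higher, Bcl2 (0.81 ± 0.07, edgeR adjusted p = 7.2e-10) and Bcl2l2 (0.33 ± 0.05, edgeR adjusted p = 9.1e-06), and 0 were lower. Of the 6 pro-apoptotic members, 2 were higher, Bmf 17.9-fold (4.16 ± 0.15, edgeR adjusted p = 1.2e-15) and Bcl2l11 2.81-fold (1.49 ± 0.07, edgeR adjusted p = 6.8e-14). The 3 effectors were all lower: Bax 1.60-fold (-0.68 ± 0.07, edgeR adjusted p = 1.9e-08), Bok 1.47-fold (-0.56 ± 0.07, edgeR adjusted p = 9.1e-07) and Bak1 1.35-fold (-0.43 ± 0.05, edgeR adjusted p = 2.8e-07). The average for Bok joins a fall in EV-deficient cells with no call in EV-proficient cells, and those for Bcl2l2 and Bak1 join a call in EV-proficient cells with none in EV-deficient cells. Bid, with opposite changes in the derivatives, averaged -0.05 ± 0.05 (edgeR adjusted p = 0.38).

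**Figure D2:**
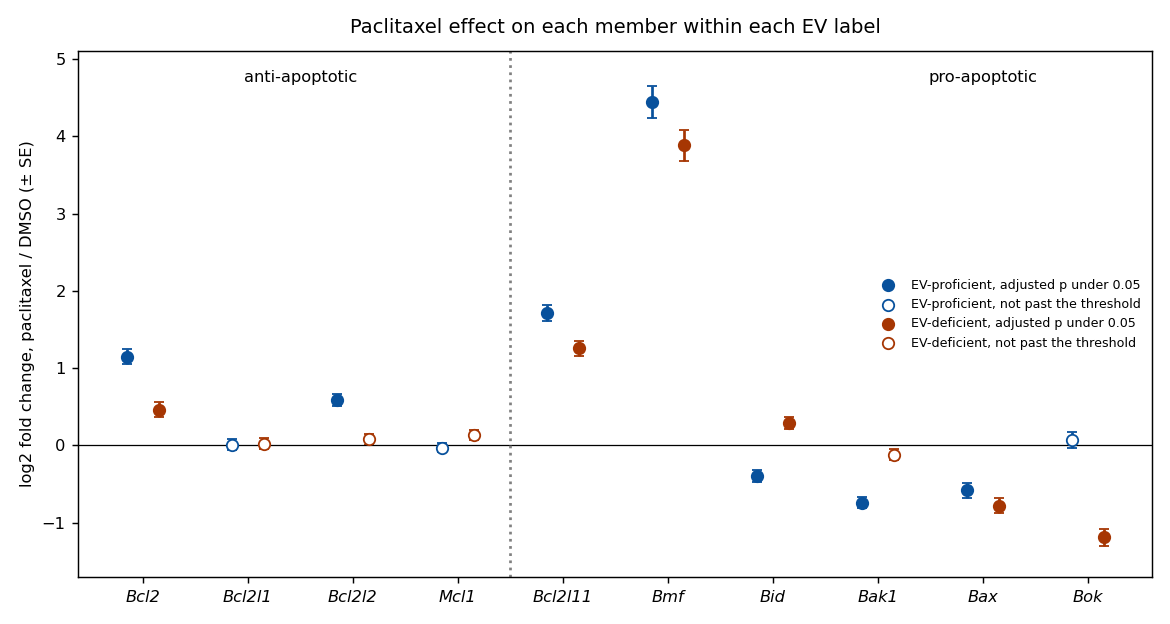
Log2 fold change of paclitaxel over DMSO for each member, with EV-proficient and EV-deficient cells side by side; bars are ± SE, filled points passed an edgeR adjusted p of 0.05 and open points did not. Bmf (4.44 and 3.88) and Bcl2l11 (1.72 and 1.26) stand highest, and Bid is the member called on opposite sides of 0.

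Levels can be set against each other only per length, so CPM was divided by the kilobases (kb) of exon of each gene. On this scale Mcl1 and Bcl2l1 were the highest of the 10 in all 4 groups, at 36.3 to 43.4 CPM per kb. They overlapped in both EV-proficient groups, and Mcl1 lay above Bcl2l1 without overlap in both EV-deficient groups. Their order rests on the length used. Per kb of the longest transcript, an alternative chosen after seeing the data, both were still the highest, but Bcl2l1 lay above Mcl1 without overlap in all 4 groups, at group means of 64.8 to 74.9 against 39.5 to 43.4 CPM per kb. Places below them moved too, with Bax at 26.1 ahead of Bak1 at 20.0 CPM per kb in EV-deficient DMSO libraries. Per kb of exon, in EV-proficient DMSO libraries they were followed by Bak1 at 25.5, Bok at 18.6, Bax at 16.6, Bid at 13.9, Bcl2l2 at 7.05, Bcl2l11 at 3.07, Bcl2 at 1.08 and Bmf at 0.135 CPM per kb. Of these neighbours only Bok and Bax overlapped. The order in EV-deficient DMSO libraries differed at the top, with Bok at 25.8 ahead of Bak1 at 19.8 CPM per kb, and the genes from Bid downwards kept their places. Paclitaxel brought several members together. In EV-proficient cells Bax, Bcl2l2, Bid and Bcl2l11 lay between 10.1 and 11.1 CPM per kb, each overlapping the next, and Bmf at 2.97 passed Bcl2 at 2.39 CPM per kb. In EV-deficient cells Bok at 11.3, Bax at 10.6, Bcl2l11 at 8.76 and Bcl2l2 at 7.84 CPM per kb formed such a run, and Bmf at 2.27 overlapped Bcl2 at 1.95 CPM per kb. Bcl2, the guardian with the clearest rise, was still among the least abundant members with the drug.

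Summed by side, the guardians of EV-proficient libraries came to 91.5 ± 2.74 CPM per kb under DMSO and 95.8 ± 4.44 with the drug, and those of EV-deficient libraries to 84.6 ± 1.39 and 90.1 ± 5.44 CPM per kb (SD, n = 3 each). The pro-apoptotic members came to 77.7 ± 3.36, 69.3 ± 3.76, 79.9 ± 1.35 and 66.1 ± 0.766 CPM per kb in the same order. The quotient of the sums, guardians over pro-apoptotic members, was 1.25, 1.18 and 1.11 in EV-proficient DMSO and 1.35, 1.39 and 1.42 in EV-proficient paclitaxel libraries. In EV-deficient libraries it was 1.07, 1.08 and 1.03 under DMSO and 1.37, 1.46 and 1.26 under paclitaxel. The 6 paclitaxel libraries lay above the 6 DMSO libraries. This order rests on the length correction: without it the group means were 1.91 and 1.79 in EV-proficient and 1.76 and 1.71 in EV-deficient cells, under DMSO and paclitaxel, so that the direction turned in both. The fall of the pro-apoptotic sum rests on the correction too: summed CPM without it was higher with the drug in both derivatives.

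The composition of the pro-apoptotic side shifted more than its sum. Bcl2l11 made up 3.96% ± 0.304 of it in EV-proficient DMSO and 14.6% ± 1.06 in EV-proficient paclitaxel libraries. In EV-deficient libraries the shares were 4.58% ± 0.0186 and 13.3% ± 2.84 (SD, n = 3 each). Among the guardians Mcl1 held 42.8% to 48.2% of the sum by group, and Bcl2 a small part. The share of Bcl2 lay between 1.08% and 1.27% in EV-proficient libraries under DMSO and between 2.31% and 2.69% with the drug. In EV-deficient libraries it lay between 1.61% and 1.72%, and between 2.07% and 2.21% with the drug. These sums add transcripts of proteins that differ in stability and affinity, and no test was made on them.

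**Figure D3:**
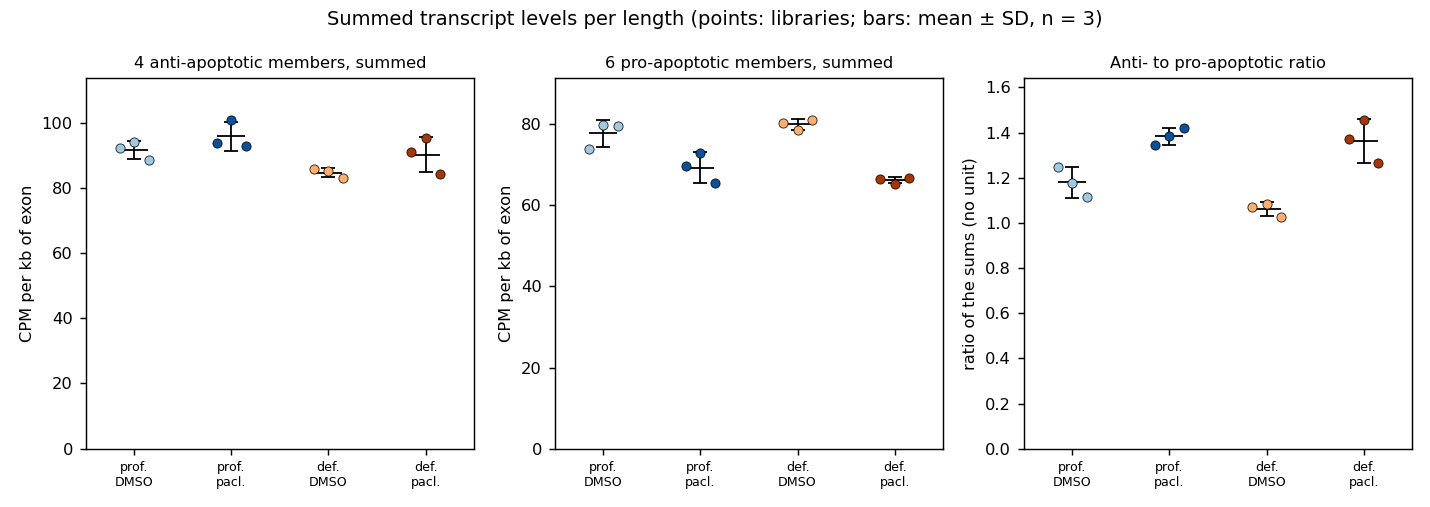
Summed CPM per kb of exon of the guardians and of the pro-apoptotic members, and their quotient, by group; points are libraries and bars the mean ± SD (n = 3). The quotient lies between 1.03 and 1.25 in the DMSO libraries and between 1.26 and 1.46 in the paclitaxel libraries.

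Between the EV labels without drug, EV-deficient libraries had more Bcl2 and Bok and less Bak1 and Bcl2l1. Bok was 1.39-fold higher (0.48 ± 0.10, edgeR adjusted p = 0.0019), Bcl2 1.31-fold higher (0.39 ± 0.10, edgeR adjusted p = 0.0052) and Bak1 1.28-fold lower (-0.36 ± 0.07, edgeR adjusted p = 0.0011). Bcl2l1 was 1.15-fold lower (-0.20 ± 0.07, edgeR adjusted p = 0.047), a call lost in each of the 6 fits that left out a DMSO library (-0.23 to -0.15). These 4 of 10 members compare with 23.0% of all genes called, 12.4% higher and 10.6% lower. The labels did not overlap for 7 members, beside 43.3% of all genes. Bcl2l11 (0.25 ± 0.10, edgeR adjusted p = 0.076) and Bid (-0.18 ± 0.07, edgeR adjusted p = 0.085) did not pass, although Bid passed in 9 alternatives and Bcl2l11 in 3, among them without EV-deficient paclitaxel replicate 2 (0.21). Bcl2l2, Mcl1, Bmf and Bax differed by -0.08 to 0.17, with edgeR adjusted p from 0.38 to 0.71.

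Under paclitaxel the picture between the labels was mostly turned around. EV-deficient libraries had less Bok, 1.72-fold (-0.78 ± 0.11, edgeR adjusted p = 7.0e-06), less Bcl2l2, 1.35-fold (-0.43 ± 0.07, edgeR adjusted p = 9.0e-05), and less Bcl2, 1.23-fold (-0.29 ± 0.09, edgeR adjusted p = 0.016). They had more Bid, 1.42-fold (0.50 ± 0.07, edgeR adjusted p = 1.8e-05), and more Bak1, 1.20-fold (0.26 ± 0.08, edgeR adjusted p = 0.0094). Bcl2l1 was again lower (-0.18 ± 0.07, edgeR adjusted p = 0.045), and lost this call in 9 alternatives, among them without EV-proficient paclitaxel replicate 2 (-0.098), EV-deficient DMSO replicate 2 (-0.19) and EV-deficient paclitaxel replicates 1 (-0.19) and 3 (-0.14). In all 6 of 10 members passed, 2 higher and 4 lower, against 37.8% of all genes, 16.0% higher and 21.8% lower. The labels did not overlap for 5 members, beside 44.1% of all genes. The call for Bcl2 was lost without EV-proficient paclitaxel replicate 1 (-0.26) and without EV-deficient paclitaxel replicate 3 (-0.22). Bmf (-0.39 ± 0.16, edgeR adjusted p = 0.059) and Bcl2l11 (-0.20 ± 0.09, edgeR adjusted p = 0.098) did not pass, and both passed without EV-deficient paclitaxel replicate 2, the library highest for both in its group (-0.61 and -0.37). Without EV-deficient paclitaxel replicate 3 the values were -0.26 for Bmf and -0.093 for Bcl2l11, and without EV-proficient DMSO replicate 1 Bmf passed at -0.40.

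For 9 of the 10 members, all but Bcl2l1, the difference between the labels had opposite signs under the 2 treatments, beside 67.1% of all genes tested. Of the 4 members called under both treatments, 3 (Bcl2, Bak1 and Bok) had opposite signs, beside 96.0% of the 2834 genes called under both. The members shared this turn with the transcriptome and with the dngfr row, and its cause was not tested.

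**Figure D4:**
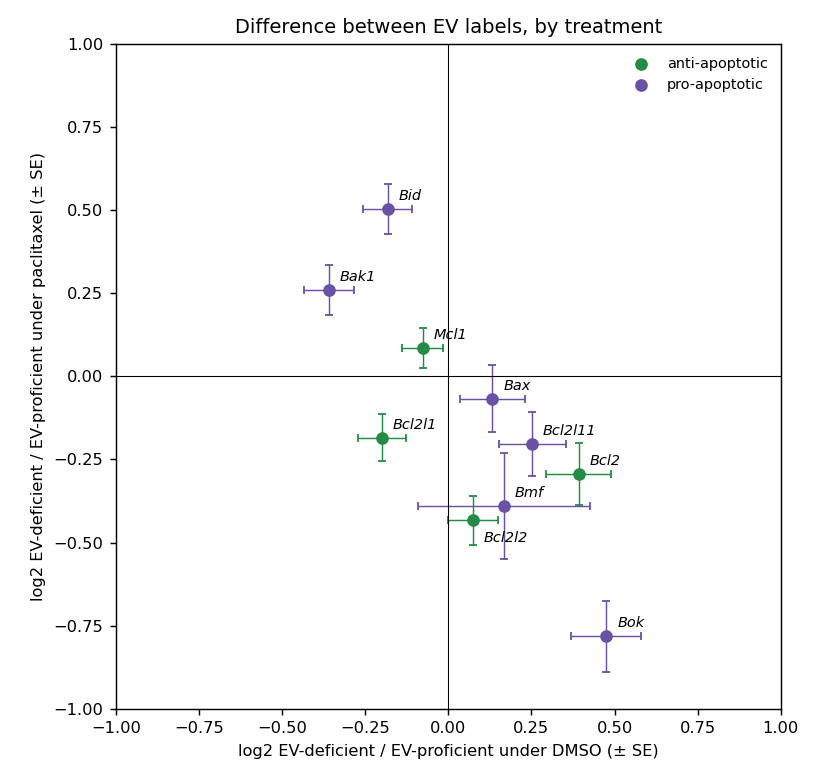
Log2 difference between EV-deficient and EV-proficient libraries for each member, under DMSO (horizontal) and under paclitaxel (vertical), with ± SE bars. Bok (0.48 and -0.78) and Bcl2 (0.39 and -0.29) lie at the lower right, Bak1 (-0.36 and 0.26) and Bid (-0.18 and 0.50) at the upper left.

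Whether the drug acted differently in the 2 derivatives was asked of the interaction term, that is the drug effect of EV-deficient minus that of EV-proficient cells, which takes the paclitaxel labels as given. It passed for 6 of 10 members, 2 higher and 4 lower, against 40.7% of all genes, 16.9% higher and 23.8% lower. The response was lower in EV-deficient cells for Bok (-1.26 ± 0.15, edgeR adjusted p = 7.4e-07), Bcl2 (-0.69 ± 0.14, edgeR adjusted p = 3.0e-04), Bcl2l2 (-0.51 ± 0.11, edgeR adjusted p = 5.2e-04) and Bcl2l11 (-0.46 ± 0.14, edgeR adjusted p = 0.011). It was higher for Bid (0.69 ± 0.11, edgeR adjusted p = 1.9e-05) and Bak1 (0.62 ± 0.11, edgeR adjusted p = 6.8e-05). The call for Bcl2l11 was lost without EV-deficient paclitaxel replicate 1 (-0.38). Differences that did not pass were bounded by their 95% intervals: -0.19 to 0.22 for Bcl2l1, -0.01 to 0.34 for Mcl1, -0.49 to 0.09 for Bax and -1.19 to 0.07 for Bmf. The value for Mcl1 (0.16 ± 0.09, edgeR adjusted p = 0.14) passed without EV-deficient paclitaxel replicate 3 (0.26), with upper-quartile scaling (0.29), with a filter of 1 CPM in 3 libraries (0.21) and with DESeq2 (0.21). The value for Bmf (-0.56 ± 0.30, edgeR adjusted p = 0.16) was the least precise, and it passed without EV-proficient DMSO replicate 1 (-0.85) and without EV-deficient paclitaxel replicate 2 (-0.74).

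The rest of the pathway was followed in 43 further genes in 4 lists, of which 37 passed the filter. Averaged over both labels, paclitaxel raised 19 and lowered 13 of the 37, which is 32 called beside the 68.4% of all genes. Within EV-proficient cells 17 were higher and 11 lower, and within EV-deficient cells 15 and 13, so that 28 of 37 (75.7%) were called in each, beside 58.2% and 62.9% of all genes. Genes named from here on were the 2 highest and 2 lowest of a list that passed the test and averaged 5 CPM or more.

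Among 13 other BCL2 relatives 8 were tested, and 3 were higher and 2 lower on average; the 3 Bcl2a1 genes of the table, Bcl2l10 and Bcl2l14 were not tested. Bbc3, which encodes the BH3-only protein PUMA, averaged 0.55 ± 0.12 (edgeR adjusted p = 4.5e-04), with a call in EV-proficient cells (0.75) but not in EV-deficient cells (0.35, edgeR adjusted p = 0.081); its interaction did not pass (-0.39 ± 0.25, edgeR adjusted p = 0.22). The average for Bcl2l15 (0.39 ± 0.07, edgeR adjusted p = 5.4e-05) joins a rise of 0.73 in EV-deficient cells with a difference of 0.05 in EV-proficient cells that did not pass (edgeR adjusted p = 0.69), and its interaction was 0.68 ± 0.14 (edgeR adjusted p = 6.0e-04). Bad, a BH3-only protein held inactive by phosphorylation, fell by 0.51 ± 0.07 (edgeR adjusted p = 6.8e-07). Bcl2l13 fell by 0.33 ± 0.04 (edgeR adjusted p = 3.3e-07). Pmaip1 encodes NOXA, the BH3-only protein that binds MCL-1, and it turned with the labels. It went from 175 ± 8.56 to 279 ± 21.7 CPM in EV-proficient libraries and from 243 ± 9.66 to 198 ± 10.3 CPM in EV-deficient libraries (SD, n = 3 each). Its interaction was -0.97 ± 0.09 (edgeR adjusted p = 3.5e-08).

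Of 14 genes for mitochondrial release, the apoptosome, caspases and their inhibitors, 8 were higher and 5 lower on average. Cycs, which encodes cytochrome c, fell from 157 ± 8.14 to 80.6 ± 2.75 CPM in EV-proficient and from 163 ± 6.47 to 86.9 ± 11.2 CPM in EV-deficient libraries (-0.93 ± 0.05 averaged, edgeR adjusted p = 1.9e-12). Vdac3, a channel of the outer mitochondrial membrane, fell by 0.42 ± 0.05 (edgeR adjusted p = 3.3e-08). Birc3, which encodes the inhibitor cIAP2, rose by 1.07 ± 0.10 (edgeR adjusted p = 7.8e-09). Thus the gene for the released factor was lower while that of an inhibitor was higher.

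Of 10 genes in the death receptor arm 9 were tested, Fasl being the exception, and all 9 were called on average, 5 higher and 4 lower. Casp8, which encodes the protease that cleaves BID, rose by 0.31 ± 0.04 (edgeR adjusted p = 2.2e-06). The average for Tnfrsf1a, a TNF receptor, was 0.26 ± 0.05 (edgeR adjusted p = 1.1e-04); it joins a rise of 0.48 in EV-proficient cells with a difference of 0.04 in EV-deficient cells that did not pass (edgeR adjusted p = 0.65), and its interaction was -0.44 ± 0.10 (edgeR adjusted p = 0.0014). The adaptor Fadd fell by 0.68 ± 0.10 (edgeR adjusted p = 3.0e-06) and the kinase gene Ripk1 by 0.31 ± 0.04 (edgeR adjusted p = 2.1e-06). These averages join unequal values in EV-proficient and EV-deficient cells: 0.44 and 0.19 for Casp8, -0.40 and -0.96 for Fadd, -0.47 and -0.16 for Ripk1. The interaction was called for 7 of the 9 tested genes of this list, 4 higher and 3 lower, beside 40.7% of all genes. Tnfrsf10b, the TRAIL receptor, was lower in EV-proficient cells (-0.60 ± 0.06, edgeR adjusted p = 4.4e-08), and its interaction was 0.65 ± 0.09 (edgeR adjusted p = 4.2e-06). Tnfsf10, the gene of the ligand TRAIL, was under the 5 CPM limit and was singled out after its values were seen. It had at most 2 counts in any DMSO library, and its means under paclitaxel were 0.428 ± 0.298 and 1.96 ± 0.993 CPM for the EV-proficient and EV-deficient labels (SD, n = 3 each).

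Of 6 genes for turnover and transcription of members, 3 were higher and 2 lower on average. Foxo3 encodes a transcription factor known to act on Bcl2l11, and its level was 41.2 ± 2.03 CPM in EV-proficient DMSO and 96.0 ± 4.47 CPM in EV-proficient paclitaxel libraries. In EV-deficient libraries it was 63.6 ± 2.29 and 68.7 ± 4.67 CPM (SD, n = 3 each). Foxo3 rose 2.33-fold in EV-proficient cells (1.22 ± 0.07, edgeR adjusted p = 4.2e-12), and its interaction was -1.11 ± 0.10 (edgeR adjusted p = 6.5e-09). In EV-deficient cells the difference of Foxo3 was 0.11 ± 0.07 and did not pass (edgeR adjusted p = 0.16). Ddit3, which encodes the stress factor CHOP, rose by 0.56 ± 0.07 (edgeR adjusted p = 2.3e-07). Huwe1, a ubiquitin ligase that marks MCL-1 for destruction, fell by 0.58 ± 0.07 (edgeR adjusted p = 1.3e-07), and Trp53 by 0.45 ± 0.07 (edgeR adjusted p = 1.5e-05).

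**Figure D5:**
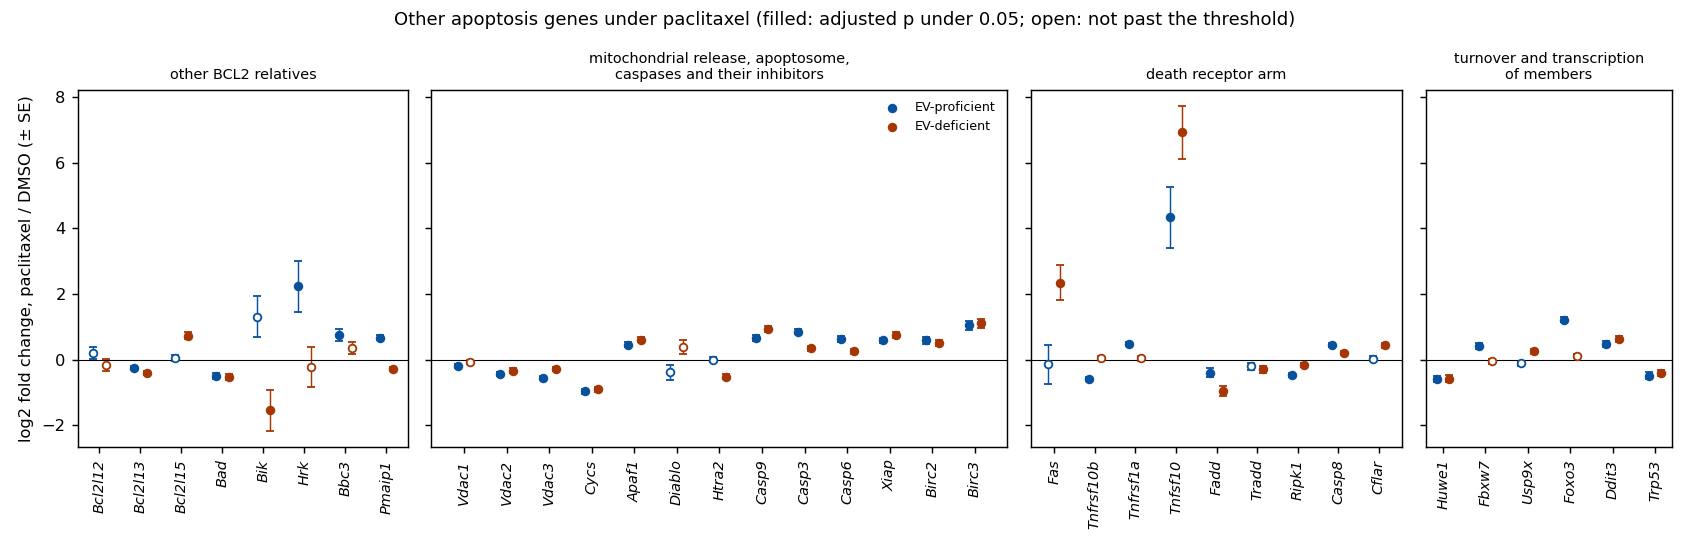
Log2 fold change of paclitaxel over DMSO for tested genes of the 4 pathway lists (1 is not shown), with EV-proficient and EV-deficient cells side by side; bars are ± SE, filled points passed an edgeR adjusted p of 0.05 and open points did not. Cycs lies at -0.96 and -0.91, Birc3 at 1.04 and 1.10, and Foxo3 at 1.22 in EV-proficient cells; the height of Tnfsf10 is a fitted value against at most 2 counts per DMSO library and has no fixed size.

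Between the EV labels, 9 of the 37 pathway genes were called under DMSO, 5 higher and 4 lower in EV-deficient libraries, and 17 under paclitaxel, 7 higher and 10 lower, beside 23.0% and 37.8% of all genes. The DMSO count was 5 when EV-proficient DMSO replicate 1 or 2 or EV-deficient DMSO replicate 2 was left out, and 4 without EV-deficient DMSO replicate 3. Foxo3 was 0.63 ± 0.07 higher under DMSO (edgeR adjusted p = 4.6e-07) and 0.48 lower under paclitaxel (-0.48 ± 0.07, edgeR adjusted p = 8.3e-06). Pmaip1 was 0.48 ± 0.07 higher (edgeR adjusted p = 1.1e-05) and then lower (-0.49 ± 0.07, edgeR adjusted p = 5.5e-06). Tnfrsf10b went the other way, -0.29 ± 0.06 under DMSO (edgeR adjusted p = 0.0013) and 0.36 ± 0.06 under paclitaxel (edgeR adjusted p = 1.2e-04). The interaction was called for 19 of the 37, 8 higher and 11 lower, beside 40.7% of all genes.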

How the data were processed

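Whole read counts per gene, not normalized, were deposited by the authors for 12 libraries; poly(A) RNA was made into stranded libraries, per the labels' protocols. STAR 2.5.0a and GRCm38 are named in the submitters' processing notes, and the counting program, annotation and use of strand are not given in the sources used here. The table held 55421 Ensembl genes, and 2 rows added by the authors (gfp, at 0 in every library, and dngfr) were kept out of library sizes and tests. Counts were fitted in R 4.3.3 with edgeR 4.0.16: filterByExpr on the 4 groups (minimum count 10), scaling by trimmed mean of M values (factors 0.890 to 1.15), and a single quasi-likelihood fit of all 12 libraries with 4 group means. Benjamini-Hochberg adjustment ran over the 18108 genes kept, and 0.05 was the threshold. Genes, lengths and positions came from GENCODE M21 on GRCm38, which matched 99.7% of the genes. Upstream windows came from RefSeq (GRCm38.p6). Replicate pairs differed by a chi-square of 4.20 to 27.8 per degree of freedom.

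The members and the pathway lists were chosen with earlier results of these data known. All 10 members were named, and of each pathway list at most 2 genes per direction and comparison with a mean of at least 5 CPM. The alternatives tried were other scaling (median of ratios; upper quartile), no filter or 1 CPM in 3 libraries, DESeq2 1.42.0, limma-voom 3.58.1, a block for the replicate number, a fit of the compared groups alone, and leaving out each library in turn. The fits were tested on simulated counts, for the paclitaxel comparison in EV-proficient cells only. With edgeR, 36 of 63 genes changed 1.5-fold and 56 of 66 changed 4-fold were recovered, with 6 false calls. At 1 CPM or more, 36 of 43 and 51 of 51 were recovered. The rule for passing was limited to genes at 1 CPM or more after the misses below it were seen. Protein sequences were not used here, and 1 gene that the naming rule selects is counted in its list but not reported here. A limit of 3 counts covers counting error alone, because PCR copies were not marked by molecular identifiers.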

Additional observations from a re-analysis of the deposited data

Results flagged for a closer look

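For 6 members the paclitaxel effect differed between the derivatives by a test of the interaction: Bok by -1.26, Bcl2 by -0.69, Bcl2l2 by -0.51, Bcl2l11 by -0.46, Bid by 0.69 and Bak1 by 0.62 on the log2 scale (EV-deficient minus EV-proficient, edgeR adjusted p from 7.4e-07 to 0.011). Over all genes tested, 40.7% were called for the interaction. The call for Bcl2l11 was lost without EV-deficient paclitaxel replicate 1 and with upper-quartile scaling. The dngfr row, which no comparison used, averaged 10.9 CPM in EV-deficient paclitaxel and 3.24 CPM in EV-proficient paclitaxel libraries, with 2.15 and 8.99 CPM in the matching DMSO libraries. An exchange of the labels between the 2 paclitaxel groups cannot be told apart here from these differences, and it would change each of the 6 values. What links this row to the members' values was not tested.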

How the results depend on the processing

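Counts of members called stayed within 1.5 times in all 118 alternative results, each a setting for a comparison, so that most fits gave several. With 1 library left out they ran 7 to 7 (paclitaxel, EV-proficient), 6 to 7 (EV-deficient) and 7 to 7 (averaged). For the EV labels they ran 3 to 6 under DMSO and 4 to 8 under paclitaxel, and for the interaction 5 to 7. Of the members' fold changes, 1088 kept direction and side of the threshold, 39 gained and 22 lost a call, and 31 turned sign, none of these called. The turned values were, for Bcl2l1, -0.014 in EV-proficient cells (median-of-ratios; DESeq2), and -0.013 in EV-deficient cells and -0.052 for the interaction (no filter); for Mcl1 in EV-proficient cells 0.033 (upper-quartile) and 0.00034 (no filter); and with upper-quartile scaling 0.064 for Bak1 in EV-deficient cells, 0.069 for Bid averaged and 0.029 for Bax between labels under paclitaxel. With 1 library left out, Bcl2l1 ran from -0.13 to 0.056 (EV-proficient), -0.025 to 0.067 (EV-deficient), -0.056 to 0.033 (averaged) and -0.046 to 0.14 (interaction), Mcl1 from -0.085 to 0.0079 and Bok from -0.059 to 0.15 (both EV-proficient), and Bax from -0.17 to 0.057 (labels under paclitaxel). Upper-quartile scaling moved the median of all genes by 0.18 in EV-deficient cells and 0.12 averaged and for the interaction; the share of calls that were higher went from 51.5% to 63.4%, and for the interaction from 41.4% to 53.9% and the labels under paclitaxel from 42.4% to 58.2%. Under it Bcl2l1 (0.21), Bcl2l2 (0.26) and Mcl1 (0.32) passed in EV-deficient cells, and the calls for Bcl2l11 (interaction, -0.33) and Bcl2 (labels under paclitaxel, -0.20) were lost. Pathway genes called between labels under DMSO ran from 4 to 10. The quotient of sums was 1.28, 1.45 and 1.12 with the longest transcript (EV-proficient DMSO, EV-proficient paclitaxel, EV-deficient DMSO); in the order of groups in the report it was 1.91, 1.79, 1.76 and 1.71 with no length correction and 0.641, 0.792, 0.565 and 0.707 without Mcl1; with 1 replicate left out it ran 1.15 to 1.21, 1.37 to 1.40, 1.05 to 1.08 and 1.32 to 1.41. Replicate numbers do not pair the libraries: over 18 same-numbered pairs r was -0.0812 to 0.0970, and 4 of 12 libraries correlated best with their own number. With the replicate block 7, 7, 7, 4, 7 and 6 members were called in the 6 comparisons in the order above, beside 7, 6, 7, 4, 6 and 6. Depth limits Bmf most, with 19 to 43 counts a DMSO library. The causes of these changes were not tested.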
